A study of Mus musculus with 10 samples.

Results

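Ubiquitin is not made as a free protein but is cut out of precursors, and the transcripts of 2 of the genes that encode such precursors, Ubb and Rps27a, were followed in the wasting muscle of tumor-bearing mice. They were chosen by name, as a polyubiquitin gene and a ribosomal fusion gene, from the 39179 gene identifiers listed for each sample. The tibialis anterior, a shin muscle made mostly of fast glycolytic fibres, was taken from 10 mice and its RNA sequenced as 1 library per mouse. The LLC group (n = 6) carried tumors of Lewis Lung Carcinoma cells, a mouse lung cancer line injected under the skin of both flanks, and the Control group (n = 4) received buffer (PBS) and carried no tumor. The sample labels gave the strain as C57BL/6J, the age as 10 weeks and tumor development as 23 days, whereas the design text gave male C57BL/10 mice, 8 weeks of age and 22 days. The animals that were sequenced in the LLC group were survivors of the whole period, and all tumors came from the same cell line.

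Ubiquitin is a small protein that is joined to other proteins and, as chains, marks them for the 26S proteasome, the main route by which a wasting muscle breaks down its myofibrillar proteins. Polyubiquitin genes such as Ubb encode several ubiquitin units head to tail, respond to heat shock and other stress, and give more ubiquitin per transcript. Fusion genes such as Rps27a encode a single unit joined to a ribosomal protein, so that ubiquitin and ribosomal protein are made together, and deubiquitinating enzymes separate them.

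Ubb (ENSMUSG00000019505) lies on the plus strand of chromosome 11 in build GRCm38 (mm10), at chr11:62551171-62553213, and none of its exons overlap those of another gene. Its coding transcript Ubb-201 has 1499 bases in 2 exons, and the 305 coding codons hold 4 ubiquitin units of 76 residues (228 bases) and 1 residue more. Rps27a (ENSMUSG00000020460) lies on the minus strand of the same chromosome, at chr11:29545846-29548109. Its coding transcript Rps27a-202 has 791 bases in 6 exons, and the 156 codons hold 1 ubiquitin unit and 80 residues of the ribosomal protein. All 5 units encode the same residues, so the 2 genes differ in the coding bases and not in the ubiquitin they give. The first and the last Ubb unit and the Rps27a unit are shown because they mark how far the reads of these genes can be told apart. The sequences are from the GENCODE M21 transcripts, and capitals mark the bases that differ from the first Ubb unit.
Ubb unit 1: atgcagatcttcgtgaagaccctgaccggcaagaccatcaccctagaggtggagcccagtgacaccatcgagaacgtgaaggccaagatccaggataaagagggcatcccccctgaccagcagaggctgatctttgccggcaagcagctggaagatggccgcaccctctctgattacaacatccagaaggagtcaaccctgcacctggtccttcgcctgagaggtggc
Ubb unit 4: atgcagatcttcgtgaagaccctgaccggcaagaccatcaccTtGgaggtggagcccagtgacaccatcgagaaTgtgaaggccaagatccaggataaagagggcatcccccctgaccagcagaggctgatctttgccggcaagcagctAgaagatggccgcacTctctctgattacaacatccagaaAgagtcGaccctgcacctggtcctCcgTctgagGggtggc
Rps27a unit 1: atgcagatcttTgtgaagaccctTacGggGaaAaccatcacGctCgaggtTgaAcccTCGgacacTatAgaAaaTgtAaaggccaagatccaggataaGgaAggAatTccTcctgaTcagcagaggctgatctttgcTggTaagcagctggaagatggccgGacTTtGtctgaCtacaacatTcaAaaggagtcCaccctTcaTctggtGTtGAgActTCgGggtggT
Within Ubb, any pair of units differed at 2 to 10 of the 228 bases (95.6% to 99.1% identity). The Rps27a unit differed from the first Ubb unit at 44 bases (80.7% identity), and 38 of these were in the third codon position. Of the 1400 stretches of 100 bases in Ubb-201, 23.7% were repeated within the transcript, 52.4% were also in transcripts of other genes and 39.3% were found nowhere else. Of the 692 stretches in Rps27a-202, 62.6% were also in transcripts of other genes and 37.4% were found nowhere else. A single read of 100 bases from a shared stretch has more than 1 possible origin, so some reads of both genes may be lost or misplaced. The reads were sequenced in pairs, and a mate outside the shared stretch can place both. The part of the counts affected was therefore not measured by these shares.

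Fast fibre genes were abundant in every library, with the summed level of 9 markers at 137413 to 146145 CPM (counts scaled to a common library total with TMM factors) in Control and 97400 to 150930 CPM in LLC. Total counts were 16693209 to 21303084 per sample. The LLC libraries stood further apart from each other than the Control libraries did, with a chi-square per degree of freedom of 7.99 to 183 between LLC pairs and 3.74 to 8.19 between Control pairs. Over the 12690 genes tested, 715 (5.63%) passed the threshold of an adjusted p of 0.05 or less (edgeR's quasi-likelihood test, Benjamini-Hochberg adjustment) and at least 1.5-fold change. Of all tested genes 1.65% passed it as higher in LLC and 3.99% as lower, and the median log2 fold change was 0.0019. By DESeq2 388 genes passed it as higher and 664 as lower. By limma voom, run with sample quality weights throughout, 275 passed it as higher and 722 as lower. Of the 12690 tested genes 6382 had positive log2 fold changes. Neutrophil markers rose (10 of 10 tested, of 12 listed, summed level 1.27 to 3.01 CPM in Control and 37.2 to 78.4 CPM in LLC). Each tested neutrophil marker averaged 0.38 CPM or less in Control, so the low-count filter kept it through its LLC counts. That every tested one rose follows in part from this filter. Fibroblast markers fell (7 of 7, 291.6 to 376.0 CPM in Control and 52.8 to 95.6 CPM in LLC). Red blood cell markers were higher in 4 of 4 cases, 3 of them past the threshold (48.3 to 71.5 CPM and 78.1 to 123.6 CPM). Of 8 macrophage markers 2 fell past the threshold, with summed levels of 16.3 to 24.2 and 9.56 to 16.7 CPM. Of 6 endothelial markers 1 fell past it, with summed levels of 258.6 to 327.7 and 239.4 to 279.6 CPM. Other endothelial markers were lower at an adjusted p of 0.0194 to 0.0392 (edgeR), but by less than 1.5-fold. At an unadjusted p of 0.05 or less (edgeR), 4 macrophage markers were lower. At that p 4 endothelial markers were lower and 1 higher, beside 27.4% of all tested genes in either direction. Of 9 muscle markers 0 passed the threshold by edgeR, 0 by DESeq2 and 1, lower, by limma voom, and 3 were lower at an unadjusted p of 0.05 or less. No marker of any of these lists was at 0 in every sample, and the part of these cell types in the values below was not tested. In whole muscle, fewer cells of a type and less RNA per cell cannot be told apart.

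Ubb was higher in most LLC samples, but the group difference did not pass the threshold. Its level was 500.1, 503.7, 499.0 and 452.8 CPM in Control 1 to 4 (489 ± 24.1 CPM, SD, n = 4). It was 1340, 555.7, 573.6, 498.2, 931.6 and 675.8 CPM in LLC 1 to 6 (763 ± 322 CPM, SD, n = 6). LLC 1 and LLC 5 were far above every other sample, 5 of the 6 LLC samples were above all Control samples, and LLC 4 lay inside the Control range, so the groups overlapped. For comparison, 6.4% of all tested genes had every LLC sample above every Control sample. The difference was a log2 fold change of 0.64 ± 0.26 (SE), or 1.56-fold, with a 95% interval of 0.08 to 1.20 on the log2 scale (adjusted p = 0.139 by edgeR's quasi-likelihood test). An unadjusted p of 0.05 or less (edgeR), as both members had, was reached by 12.7% of all tested genes as higher in LLC and by 27.4% in either direction. The authors, who used DESeq2 and a 1.5-fold limit, listed Ubb among their up-regulated genes of variable expression. Their methods name a p of 0.05 or less and their figure legends an FDR below 0.05, so their call and the one here differ. Each Ubb value rested on 8266 to 26066 counts, a counting error of 0.619% to 1.10%, which covers counting only.

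Rps27a gave the same picture with a smaller difference. Its level was 98.8, 99.5, 95.8 and 88.1 CPM in Control 1 to 4 (95.5 ± 5.22 CPM, SD, n = 4). It was 156.6, 108.7, 107.2, 94.6, 150.0 and 106.5 CPM in LLC 1 to 6 (121 ± 25.9 CPM, SD, n = 6). LLC 1 and LLC 5 were again the highest, and LLC 4 again the sample that lay inside the Control range. The log2 fold change was 0.34 ± 0.15 (SE), or 1.26-fold, with a 95% interval of 0.01 to 0.66 (adjusted p = 0.168 by edgeR), so Rps27a did not pass the threshold either. The counts were 1608 to 3046 per sample. The pseudogene Rps27a-ps2 (chr9:83409660-83410126) held 19 to 46 counts, or 1.07% to 1.51% of those of Rps27a, and with them added the log2 fold change was 0.34 (adjusted p = 0.167 by edgeR). On the opposite strand 160 exonic bases of Rps27a (8.11% of 1972) overlap Clhc1 (ENSMUSG00000020461), which had 0 to 1 counts per sample.

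**Figure D1:**
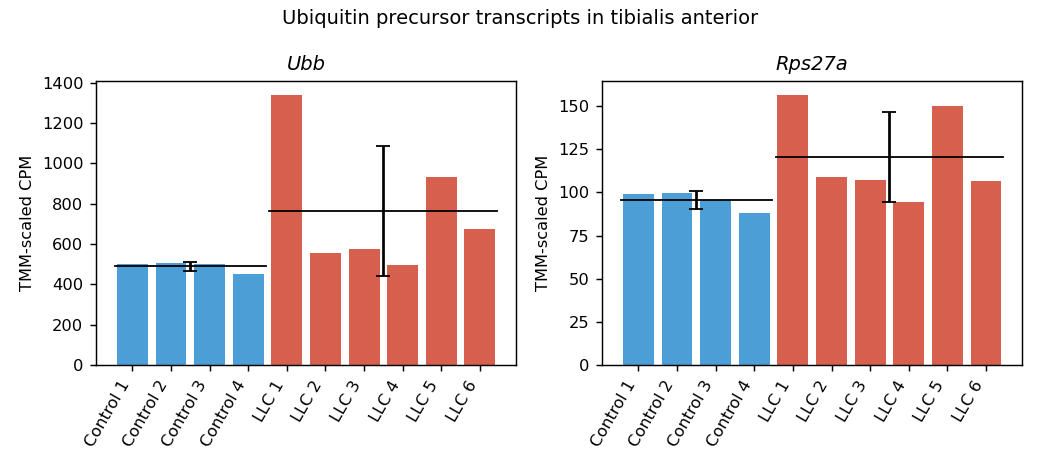
TMM-scaled CPM (linear axis from 0) of Ubb and Rps27a in each Control (blue) and LLC (red) sample. Horizontal lines are group means and error bars SD (n = 4 and n = 6), and LLC 1 and LLC 5 are the highest samples for both genes.

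The LLC samples also differed from each other far more than the Control samples did. The coefficient of variation of the Ubb level was 42.2% in LLC and 4.94% in Control, and on the log2 scale the SD was 0.54 and 0.073. For Rps27a it was 21.5% and 5.47%, with log2 SDs of 0.30 and 0.080. A wider spread in LLC was common, since 10803 of 12690 tested genes had a larger log2 SD in LLC than in Control. The LLC spread of Ubb was larger than that of 86.2% of tested genes, and that of Rps27a larger than that of 54.1%. Fbxo32 and Trim63 stood higher still, above 98.1% and 99.6% of genes. Without LLC 1 the log2 fold change of Ubb was 0.41 (adjusted p = 0.0924) and that of Rps27a 0.26 (adjusted p = 0.157), both by edgeR.

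Levels were compared between the genes per kilobase of exon. Over all annotated exon bases (1675 for Ubb and 1972 for Rps27a), the level of Ubb was 292 ± 14.4 CPM per kilobase in Control and 455 ± 192 in LLC (SD, n = 4 and n = 6). It ranked 88 of 12593 genes by its Control mean and 62 by its LLC mean. The level of Rps27a was 48.4 ± 2.65 and 61.2 ± 13.1 CPM per kilobase, with ranks of 569 and 478. Per length, the Ubb transcript was thus 6.03 ± 0.08 times as abundant as that of Rps27a in Control and 7.23 ± 1.52 times in LLC. Because Ubb carries 4 units and Rps27a 1, the same ratio weighted by ubiquitin units was 24.1 ± 0.33 in Control and 28.9 ± 6.08 in LLC. The ratio depends on the length taken. With the lengths of the coding transcripts, a choice made after seeing the data, it was 2.70 ± 0.04 in Control and 3.24 ± 0.68 in LLC, or 10.8 and 13.0 weighted by units.

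The contrast of the polyubiquitin gene with the fusion gene was tested as the ratio of their counts within each library, which needs no scaling between libraries. The Control ratios were 5.06, 5.06, 5.21 and 5.14. The LLC ratios were 8.56, 5.11, 5.35, 5.27, 6.21 and 6.34 for LLC 1 to 6. The Control samples held to a narrow range, LLC 1, LLC 6 and LLC 5 stood apart from it, and 5 of 6 LLC samples were above all Control samples. On the log2 scale the ratio was 2.36 ± 0.02 in Control and 2.59 ± 0.28 in LLC (SD, n = 4 and n = 6), a difference of 0.24 with a 95% interval of 0.02 to 0.54 (two-sided exact permutation test over 210 splits, p = 0.0286, adjusted p = 0.0429 over 3 ratios). The smallest p this design allows is 0.00952. The test and its interval take both groups to have the same spread, but the SD was 0.02 in Control and 0.28 in LLC. Both are therefore approximate for the difference of the means. Without LLC 1 the difference was 0.14 (exact p = 0.0476), and without Control 1 or Control 2 it was 0.23 and the exact p was 0.0714.

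Each gene was then set against the complex it belongs with. Ubb was compared with the mean log2 CPM of 32 genes of the 26S proteasome, which degrades the tagged proteins. The log2 difference was 2.43 ± 0.04 in Control and 2.53 ± 0.07 in LLC (SD, n = 4 and n = 6). Relative to this mean Ubb thus stood 0.11 higher in LLC (95% interval 0.02 to 0.19, two-sided exact permutation test, p = 0.0286, adjusted p = 0.0429), with 5 of 6 LLC samples above all Control samples. Single proteasome genes had log2 fold changes of 0.14 to 0.98, on both sides of the 0.64 of Ubb. Without Control 3 or Control 4 the excess was 0.11 and 0.09 and the exact p was 0.0714. Rps27a was compared with the mean of 31 other genes of the small (40S) ribosomal subunit. The log2 difference was -0.26 ± 0.06 in Control and -0.25 ± 0.06 in LLC, and the change of 0.01 had a 95% interval of -0.06 to 0.10 (two-sided exact permutation test, p = 0.790, adjusted p = 0.790). No difference between Rps27a and the other 40S genes was detectable, and a shift of up to 0.10 remained within the interval. The sign of this change turned without Control 3 (-0.02) and without LLC 1 (-0.01).

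**Figure D2:**
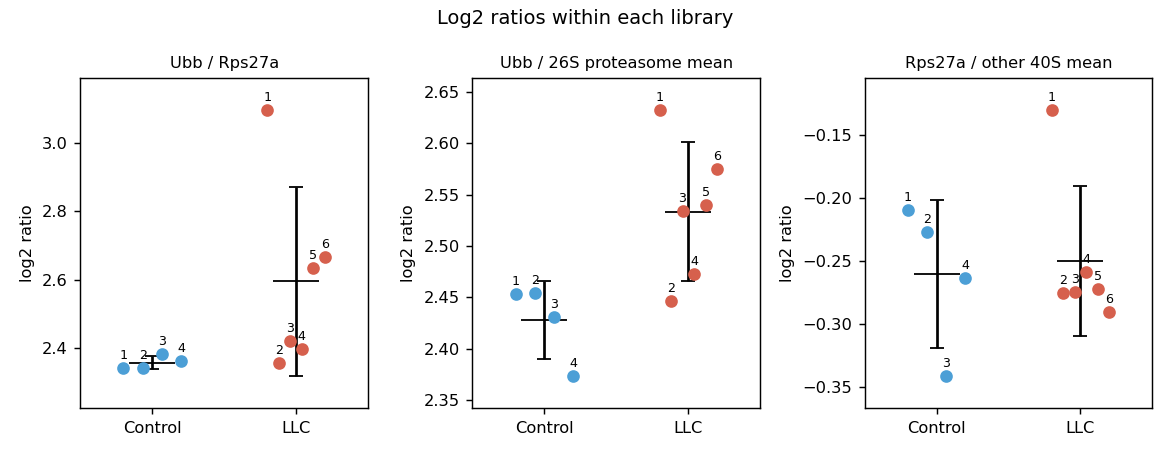
Log2 ratios in each sample (points, numbered by replicate, Control blue, LLC red; bars are mean and SD) of Ubb counts over Rps27a counts, Ubb CPM over the mean of 32 proteasome genes, and Rps27a CPM over the mean of 31 other 40S genes. The vertical axes do not start at 0. In the first panel Control lies between 2.34 and 2.38 and LLC 1 at 3.10, and in the last the groups overlap.

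Fbxo32 (atrogin-1) and Trim63 (MuRF1) are the ubiquitin ligases most used as markers of muscle wasting. The level of Fbxo32 was 349 ± 53.8 CPM in Control (269.5 to 385.3) and 1426 ± 1157 CPM in LLC (517.0 to 3630), and 6 of 6 LLC samples were above every Control sample. Fbxo32 rose, with a log2 fold change of 2.03 ± 0.49 (SE; adjusted p = 0.0307, edgeR). The call was lost without any 1 of the 4 Control samples (adjusted p of 0.0864 to 0.0980) and without LLC 5 (0.0667). Trim63 was at 182 ± 17.5 CPM in Control (156.7 to 195.0) and 836 ± 902 CPM in LLC (211.1 to 2529), again with no overlap. Its log2 fold change of 2.19 ± 0.66 (SE) had an adjusted p of 0.0718 by edgeR and did not pass. DESeq2 (adjusted p = 0.0197) and limma voom (0.0153) called Trim63, and so did edgeR without LLC 1 (0.0338), without LLC 4 (0.0397) and with no low-count filter (0.0497).

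The members and these genes shared the highest and the lowest LLC samples. In log2 CPM over the Control mean, Ubb was at 1.46, 0.19, 0.23, 0.03, 0.93 and 0.47 in LLC 1 to 6, and Rps27a at 0.71, 0.19, 0.17, -0.01, 0.65 and 0.16. Fbxo32 was at 3.39, 1.32, 1.19, 0.58, 2.34 and 1.53. The proteasome mean was at 1.25, 0.17, 0.13, -0.02, 0.82 and 0.32. LLC 1 and LLC 5 led in each, and LLC 4 was lowest in each. LLC 6 ranked above LLC 2 and LLC 3 for Ubb, Fbxo32 and the proteasome mean, but not for Rps27a.

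**Figure D3:**
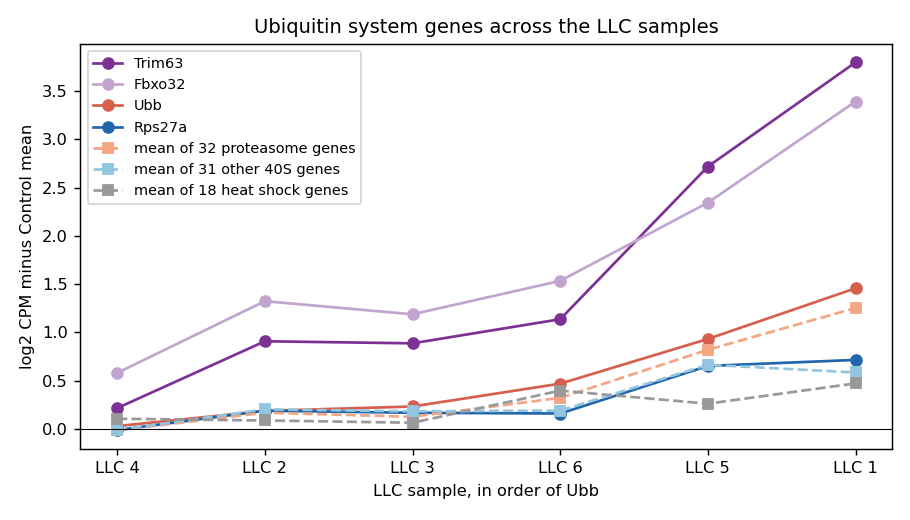
Log2 CPM minus the Control mean (vertical axis) in the 6 LLC samples, ordered by Ubb (horizontal axis), for Ubb, Rps27a, Fbxo32 and Trim63 (circles) and for the means of the proteasome, other 40S and heat shock genes (squares). Most lines climb from LLC 4 to LLC 1, where Trim63 reaches 3.80, Ubb 1.46 and Rps27a 0.71.

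Over the 6 LLC samples, Ubb went with Trim63 at r = 0.991 (exact permutation p = 0.00556, adjusted p = 0.0111 over 6 relations) and rho = 0.943 (exact p = 0.0167, adjusted p = 0.0333). Ubb with Fbxo32 gave r = 0.988 (exact p = 0.00556, adjusted p = 0.0111) and rho = 0.943 (exact p = 0.0167, adjusted p = 0.0333). Ubb with the proteasome mean gave r = 0.997 (exact p = 0.00556, adjusted p = 0.0111) and rho = 0.943 (exact p = 0.0167, adjusted p = 0.0333). These points share library and scaling factor, and LLC 1 and LLC 5 set much of the range. Without these 2 samples r was 0.891 with Trim63, 0.889 with Fbxo32 and 0.969 with the proteasome mean, each with an exact permutation p of 0.167 at n = 4, too few samples to pass.

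Ubb with Rps27a gave r = 0.948 (exact permutation p = 0.0167, adjusted p = 0.025) and rho = 0.771 (exact p = 0.103, adjusted p = 0.123), and r fell to 0.654 without LLC 1 and LLC 5 (exact p = 0.5), so this relation rests on those samples. Rps27a with the other 40S genes gave r = 0.985 (exact p = 0.0222, adjusted p = 0.0267) and rho = 0.886 (exact p = 0.0333, adjusted p = 0.05), and r was 0.997 without LLC 1 and LLC 5 (exact p = 0.167). Heat shock genes are induced by the same stresses as polyubiquitin genes, and here the relation of Ubb with their mean did not pass, at r = 0.820 (exact p = 0.0833, adjusted p = 0.0833) and rho = 0.714 (exact p = 0.136, adjusted p = 0.136). Without LLC 1 and LLC 6, the 2 samples farthest from the median of the heat shock mean, r was 0.920 (exact p = 0.5). This mean weighs 18 genes alike, whose log2 fold changes ran from -0.11 to 0.77, and relations of Ubb with single heat shock genes were not tested.

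The genes whose pattern was most like that of each member were searched over all 10 samples. Likeness was the root mean square difference of log2 CPM after each gene's Control mean was taken off. For Ubb it was smallest with Psma5 (0.046) and Psmd7 (0.062), both of the proteasome, then Npm1 (0.065) and Ncl (0.075), which encode nucleolar proteins, and Eif1 (0.074), a translation initiation factor. The median over all tested genes was 0.640, and Rps27a ranked 687 at 0.270. For Rps27a it was smallest with Rps9 (0.040), Rps15a (0.046), Rpl21 (0.048), Nhp2 (0.050) and Rps25 (0.055), where all but Nhp2, a protein that modifies ribosomal RNA, are ribosomal proteins. The median was 0.431, and Ubb ranked 2851. The log2 fold changes of these genes, 0.62 to 0.69 for those like Ubb and 0.33 to 0.39 for those like Rps27a, follow from how they were chosen.

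The enzymes that activate ubiquitin, Uba1 and Uba6, had log2 fold changes of 0.03 ± 0.07 and -0.15 ± 0.27 (SE), their signs turned under upper-quartile scaling and limma voom respectively, and 0 of 2 passed by edgeR, DESeq2 or limma voom, with 0 at an unadjusted p of 0.05 or less. Of the 8 enzymes that process precursors or recycle ubiquitin, 8 had positive log2 fold changes (median 0.20), 0 passed by any of the 3 tools and 1 was higher at an unadjusted p of 0.05 or less by edgeR, no larger a share than the 12.7% of all tested genes. These were led by Usp14, a proteasome-bound deubiquitinase (0.51 ± 0.22, SE), and Psmd14, which removes chains at the proteasome lid (0.41 ± 0.21), neither past the threshold. Their medians stood beside 0.0019 for all tested genes.

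Of 15 tested ubiquitin-like modifiers (16 listed) the median was 0.18, with 12 positive and 3 negative, 0 past the threshold by edgeR, 2 by DESeq2 and 0 by limma voom, and 7 higher and 1 lower at an unadjusted p of 0.05 or less, beside 12.7% of all tested genes as higher and 27.4% in either direction. Gabarapl1 (1.17 ± 0.36, adjusted p = 0.0774 by edgeR) and Map1lc3b (0.79 ± 0.25, adjusted p = 0.0834), both of the autophagosome membrane, led the list. Of 14 shuttle and segregase genes the median was 0.45 with 14 positive, beside 6382 of 12690 tested genes. Past the threshold were 1 by edgeR, 2 by DESeq2 and 1 by limma voom. Of all 12690 tested genes 209 (1.65%) passed as higher by edgeR, 388 by DESeq2 and 275 by limma voom. Ddi2, a protease that acts on ubiquitinated proteins, rose from 37.0 ± 3.82 to 67.8 ± 10.5 CPM (SD, n = 4 and n = 6; log2 fold change 0.87 ± 0.13, adjusted p = 0.00216 by edgeR). Without LLC 1 the median of this list was 0.28. The exons of Ddi2 overlap those of another gene on the same strand.

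Among the 9 lists of the ubiquitin system and ribosome, the proteasome list had the largest median after the 2 ligases. Of 32 genes, 32 had positive log2 fold changes, beside 6382 of 12690 tested genes, with a median of 0.50 and a range of 0.14 to 0.98. By edgeR 0 passed the threshold, by DESeq2 3 and by limma voom 0, while 17 were higher at an unadjusted p of 0.05 or less, where the share of all tested genes was 12.7%. In 8 of 32 every LLC sample was above every Control sample, beside 6.4% of all tested genes. Psmd2 (0.84 ± 0.28, SE; adjusted p = 0.0937 by edgeR), a scaffold of the regulatory cap, went from 248 ± 12.6 to 443 ± 212 CPM. Psmc5 (0.49 ± 0.18; adjusted p = 0.110), an ATPase of the cap, went from 104 ± 3.21 to 146 ± 40.1 CPM. Without LLC 1 the median log2 fold change of the list was 0.32, down from 0.50.

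Of 18 heat shock and co-chaperone genes the median was 0.20, with 17 positive, 0 past the threshold by edgeR, 2 by DESeq2 and 0 by limma voom, and 4 higher at an unadjusted p of 0.05 or less (12.7% of all tested genes). Hsph1, a nucleotide exchange factor for HSP70, had a log2 fold change of 0.74 ± 0.23 (SE; adjusted p = 0.0791 by edgeR) and Hspb8, a small heat shock protein, 0.25 ± 0.08 (adjusted p = 0.0814).

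The medians of the ribosomal protein genes lay near the 0.34 of Rps27a. Of 31 other 40S genes 31 were positive (median 0.32, range 0.04 to 0.68), with 0 past the threshold by edgeR, 1 by DESeq2 and 0 by limma voom, and 20 higher at an unadjusted p of 0.05 or less. Of 46 genes of the large (60S) subunit 46 were positive (median 0.31, range 0.11 to 0.62), with 0 past the threshold by all 3 tools and 23 higher at an unadjusted p of 0.05 or less by edgeR. Of all tested genes 12.7% were higher at that p, and 6382 of 12690 had positive log2 fold changes. Rps27 (0.68 ± 0.20, SE; adjusted p = 0.0707 by edgeR) and Rps18 (0.48 ± 0.15; adjusted p = 0.0831) had the lowest p of the 40S list, and Rpl22 (0.43 ± 0.13; adjusted p = 0.0669) and Rpl5 (0.53 ± 0.18; adjusted p = 0.0975) that of the 60S list. Fau belongs to both the ubiquitin-like and the 40S list, and Psmd14 to both the proteasome and the recycling list. The exons of Fbxo32, Usp14, Gabarapl1, Map1lc3b, Rps18, Rpl5, Psma5, Nhp2 and Rps25 overlap those of a gene on the opposite strand, and those of Rpl5, Rpl21 and Ncl, like Ddi2, those of a gene on the same strand. HTSeq counts by strand by default, but the described counting names RefSeq genes and the counts are listed by Ensembl gene, so whether strand was used for them was taken as unknown.

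**Figure D4:**
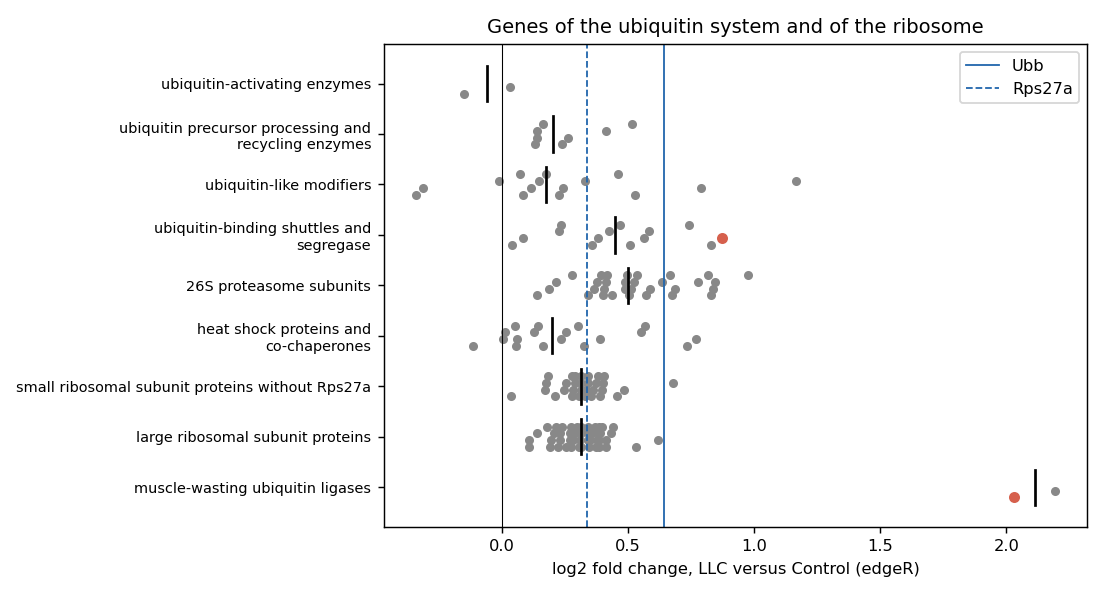
Log2 fold change, LLC versus Control (edgeR), of the tested genes in 9 lists of the ubiquitin system and ribosome (points, red past the threshold; black bars are medians), with vertical lines at Ubb (solid, 0.64) and Rps27a (dashed, 0.34). The proteasome median is 0.50 and the 40S median 0.32, and the points past the threshold are Ddi2 and Fbxo32.

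The differences of both members stayed positive and short of the threshold under every alternative run, with adjusted p of 0.0818 to 0.383 for Ubb and 0.0959 to 0.369 for Rps27a (edgeR, DESeq2 or limma). The highest adjusted p of each came from edgeR with a block by replicate number, which in effect compares LLC 1 to 4 with Control 1 to 4.

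**Figure D5:**
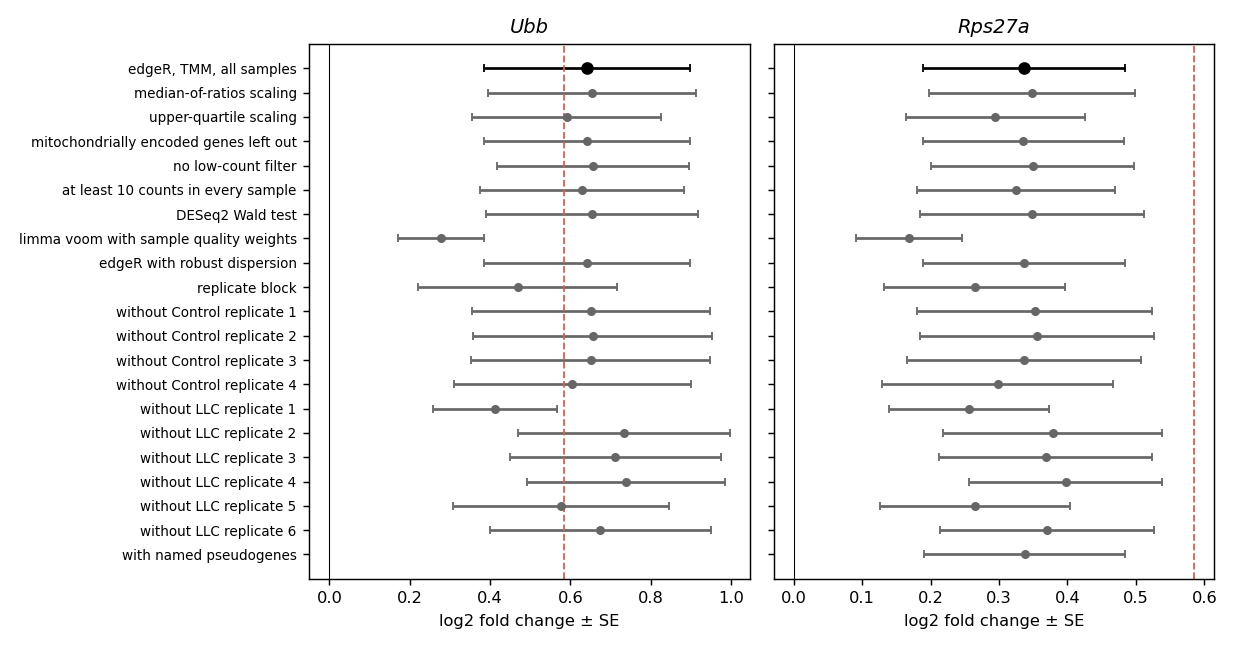
Log2 fold change ± SE of Ubb and Rps27a under each way of processing (the axes of the panels differ; the dashed red line is 1.5-fold). All points are above 0, and limma voom with sample quality weights gives the lowest values, 0.28 for Ubb and 0.17 for Rps27a.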

How the data were processed

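RNA of 10 tibialis anterior muscles was sequenced as stranded total RNA libraries in 1 lane. The authors mapped reads to mm10 with TopHat2 and counted them with HTSeq at default settings, and the deposited values are raw counts per Ensembl gene, without normalization. The study's methods name RefSeq genes, so whether those defaults, which count by strand, apply to the Ensembl table was taken as unknown, and the annotation release was not given in the sources used here. HTSeq's default drops reads with more than 1 equally good place, which lowers the counts of repeated sequence. Of 39179 identifiers 37607 had a symbol. Groups came from the sample titles, and the p-values of group differences judge them against the spread between mice.

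Counts were tested with edgeR 4.0.16 (R 4.3.3, filterByExpr minimum of 10, TMM, 12690 genes). The threshold was an adjusted p of 0.05 and 1.5-fold. Log2 CPM used a prior count of 2. Ratios were tested by exact permutation (2-sided, p as 2 times the smaller tail), and their 95% intervals hold the shifts the test did not reject, in steps of 0.005. These intervals assume the same spread in both groups. Alternatives were DESeq2 1.42.0, limma 3.58.1 (voom with sample quality weights), other scalings and filters, a replicate block and leaving out each sample. Tests were checked on simulated data. Replicates were compared by a chi-square per degree of freedom, 3.74 to 8.19 in Control pairs and 7.99 to 183 in LLC pairs, and each library was counted as 1 replicate. Members and lists were chosen with earlier results of these data known. Genes named are the members, Fbxo32 and Trim63, the list genes past the threshold (up to 4, or the 2 with the lowest p), the 5 most alike genes, named pseudogenes and genes overlapping a member. Other ubiquitin genes are not reported here.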

Additional observations from a re-analysis of the deposited data

Results flagged for a closer look

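Of 22 groups of samples searched (11 measures in Control and in LLC), 3 held a sample set apart from the rest by a Dixon ratio above its 95% critical value, where chance gives about 1.1. In Control, Control 4 had the lowest Ubb level (452.8 CPM), with a gap to the nearest sample of 0.907 of the group's range. In Control, Control 2 had the lowest Fbxo32 level (269.5 CPM), with a ratio of 0.839. In LLC, LLC 1 had the highest Rps27a level relative to the other 40S genes (log2 of -0.13), with a ratio of 0.798.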

How the results depend on the processing

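Neither member passed the threshold under any alternative, and the sign held in all: 19 for Ubb (log2 fold change 0.28 to 0.74, adjusted p 0.0818 to 0.383) and 20 for Rps27a (0.17 to 0.40, adjusted p 0.0959 to 0.369). With a replicate block Ubb was 0.47 (adjusted p = 0.383) and Rps27a 0.26 (adjusted p = 0.369) by edgeR. Replicate numbers 5 and 6 occur only in LLC, so under the block LLC 5 and LLC 6 add nothing to the group difference. The 715 genes past the threshold became 475 with at least 10 counts in every sample and 112 with the block, and 415 to 966 on leaving out 1 sample (415 to 438 without a Control sample). With the block Ddi2 (adjusted p = 0.0968) and Fbxo32 (0.224) were not called by edgeR. Replicate numbers mark different mice and do not pair the samples (correlations of deviations -0.081 to 0.13, with 1 of 4 Control samples closest to its own number). On leaving out 1 sample the Ubb to Rps27a difference ran from 0.14 to 0.29 (exact p 0.0159 to 0.0714), that of Ubb to the proteasome genes from 0.086 to 0.12 (exact p 0.0159 to 0.0714), and that of Rps27a to the other 40S genes from -0.017 to 0.027. The median of the activating enzymes (-0.06) ran from -0.14 to 0.0050 and turned without LLC 1 (0.0050), Uba6 turned to 0.036 under limma voom and Uba1 to -0.0022 under upper-quartile scaling. For these changes the cause was not tested. Of 513 values for the 27 other genes named, 490 kept direction and side of the threshold, 7 lost it, 14 gained it and 2 turned. No identifier matched a pseudogene symbol of Ubb, so that alternative was not run for Ubb. By sequence, Ubb-201 shared stretches of 100 bases with 2 other genes and Rps27a-202 with 5. The pseudogene search went by symbol, so apart from Rps27a-ps2 the counts of genes that share sequence were not examined. The 95% intervals of the members began at 0.08 (Ubb) and 0.01 (Rps27a) on the log2 scale, beside a counting error of at most 1.10% and 2.49% per sample.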
